A study of Mus musculus with 24 samples.

Results

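The 36 genes described here are mouse genes of the type I interferon antiviral response, taken as the rows of the deposited count table whose Ensembl gene IDs carry their symbols. All 36 were found among the 55487 genes of the table. They were measured in macrophages of MC38 tumors, a line from a mouse carcinoma of the colon, implanted orthotopically in C57BL/6J mice; cells positive for CD45, CD11b and F4/80 were sorted. The tumor cells lacked APC, a tumor suppressor that restrains Wnt signalling (APC-KO), or carried it (APC-WT), while the sorted macrophages belonged to hosts of the same strain in either case, so their RNA holds no check of the knockout. There were 2 APC-KO tumors and 2 APC-WT tumors, with 6 libraries from each and 24 libraries in all. The labels call the 6 libraries replicates of a sample, so tumors, and not libraries, were the units of the comparison between genotypes. The age and sex of the mice, the number of animals behind a tumor and the number of knockout clones were not given in the sources used here.

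Type I interferons are secreted when a cell senses viral nucleic acid or its own misplaced DNA. They bind the receptor Ifnar1/Ifnar2, whose kinases Jak1 and Tyk2 activate a complex of transcription factors, Irf9 among them, that binds a GAAA-rich element in the promoters of many genes. The products of those genes block the entry, translation, replication or release of viruses, and some of them sense nucleic acid or switch the signal off again. Macrophages express much of this programme at rest and more of it after interferon.

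The libraries differed in depth and makeup by genotype, and these differences bear on every comparison. A library held 8895722 to 19328572 counts in APC-KO tumor 1 and 13464061 to 17196820 in APC-KO tumor 2, against 74972634 to 93568353 in APC-WT tumor 1 and 28018638 to 46837543 in APC-WT tumor 2. Loci resembling a satellite repeat took 37.9% and 38.5% of all counts in the APC-KO tumors, against 1.32% and 7.08% in the APC-WT tumors. Counts spread evenly over exons, estimated from olfactory and vomeronasal receptor genes, came to 17.6% and 17.9% in the APC-KO tumors, against 0.751% and 5.05% in the APC-WT tumors. Levels are therefore given as scaled CPM, which is CPM relative to the TMM-scaled total of the 3941 genes that stood clear of this background, and where a gene's level in an APC-KO tumor was under 5 times its expected background, that background is given beside it. Among those genes the change between genotypes also followed transcript length, with long genes lower in APC-KO libraries, so each change was fitted with an offset for transcript length and again without it. Scaled CPM itself carries no length offset, and pairs of values are those of tumor 1 and then tumor 2. In these bulk samples fewer cells of a type and less RNA per cell cannot be told apart.

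The interferon response element was looked for in the promoter window of each gene, from 250 bases before to 50 bases after its RefSeq start (GRCm38.p6), because these genes are known for their response through it. Its core, taken as GAAA, any 2 bases and GAAA on either strand, stood in the windows of 14 of the 27 members with a window (51.9%), against 3.99% of the 27025 genes of the table. A longer run, with GAAA once more after 2 further bases, was found in 4 members and in 36 of all genes (0.133%). Matches of the core may overlap each other within the longer run. Mx1, Mx2, Oas2, Dhx58, Usp18, Zbp1, Ifi204, Rtp4 and Parp14 had no window. The stretches below hold the matches that lie before the start in 9 members, with the matched bases in capitals and 15 flanking bases on each side, all on the strand of the gene, 5′ to 3′.
Ifit1, chr19:34640770-34640828 (+): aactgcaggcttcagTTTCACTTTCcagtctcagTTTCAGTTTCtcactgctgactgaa
Ifit3, chr19:34583358-34583431 (+): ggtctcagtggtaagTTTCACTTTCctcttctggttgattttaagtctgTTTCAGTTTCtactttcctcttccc
Ifit3b, chr19:34607754-34607827 (+): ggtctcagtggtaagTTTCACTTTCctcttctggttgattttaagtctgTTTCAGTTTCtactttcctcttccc
Isg15, chr4:156200860-156200911 (-): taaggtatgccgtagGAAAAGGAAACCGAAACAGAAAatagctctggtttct
Oas1a, chr5:120907515-120907560 (-): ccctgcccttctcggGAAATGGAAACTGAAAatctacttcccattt
Oas1g, chr5:120887601-120887646 (-): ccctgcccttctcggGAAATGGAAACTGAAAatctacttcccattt
Oas3, chr5:120777710-120777749 (-): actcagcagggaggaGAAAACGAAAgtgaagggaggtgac
Rsad2, chr12:26456548-26456587 (-): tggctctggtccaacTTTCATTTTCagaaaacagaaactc
Bst2, chr8:71537572-71537617 (-): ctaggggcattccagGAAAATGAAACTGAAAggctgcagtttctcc
The stretches of Ifit3 and Ifit3b were identical over all their bases, as were those of Oas1a and Oas1g, so each of these pairs shares these letters as well as much of its transcript. Isg15, Oas1a, Oas1g and Bst2 carried the longer run. The matches of Ifih1, Ddx58, Ifitm3 and Eif2ak2 lay after the annotated start, Trim30a had a match before one of its 2 starts and another after the other start, and these are not printed. A match describes the letters of the window and not a bound site.

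**Figure D1:**
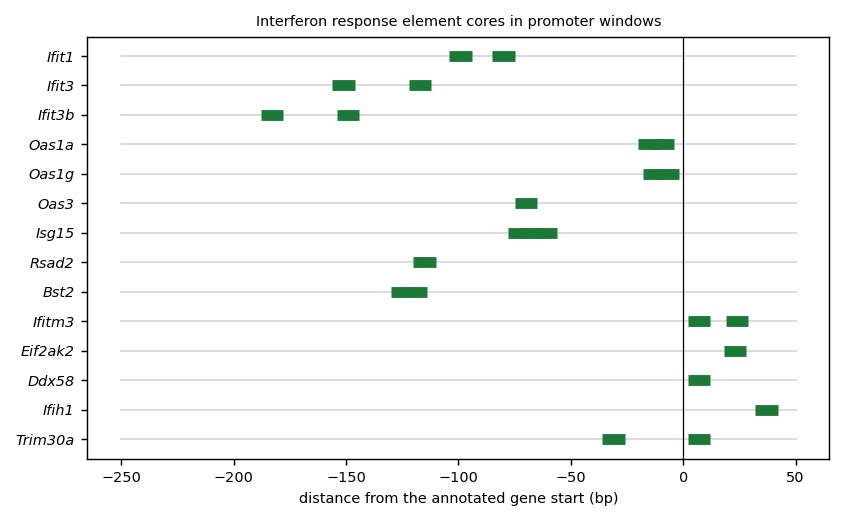
Positions of matches to the core of the interferon response element (green, either strand) in the windows of the 14 members that hold one, as distance in bases from the RefSeq start (0). Rows with several windows show them together, as for Trim30a, and the matches lie from -188 (Ifit3b) to 42 (Ifih1).

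Levels were compared between genes only per kb of exon. Ifitm3, which blocks viruses as they fuse with endosomes, was the most abundant of the 36 genes in all 4 tumors, at 1342 and 1457 scaled CPM per kb in the APC-KO tumors and 961 and 888 in the APC-WT tumors. Bst2 (tetherin, which holds budding virions at the cell surface) and Isg15 (a ubiquitin-like modifier) followed it in the second and the third place in all 4 tumors. The least abundant in all 4 tumors was Mx2, at 6.87 and 8.58 scaled CPM per kb in the APC-KO tumors and 6.33 and 5.67 in the APC-WT tumors. Summed over the 36 genes, the level was 5972 ± 171 and 6389 ± 69.8 scaled CPM in the APC-KO tumors, against 10468 ± 364 and 7444 ± 269 in the APC-WT tumors (SD, n = 6 libraries each). The expected background was 576 and 581 of these sums in the APC-KO tumors and 11.2 and 80.4 in the APC-WT tumors. The summed levels of the APC-KO tumors thus lay below those of the APC-WT tumors, and the gap between the 2 APC-WT tumors was wider than the gap between the APC-KO tumors and APC-WT tumor 2.

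**Figure D2:**
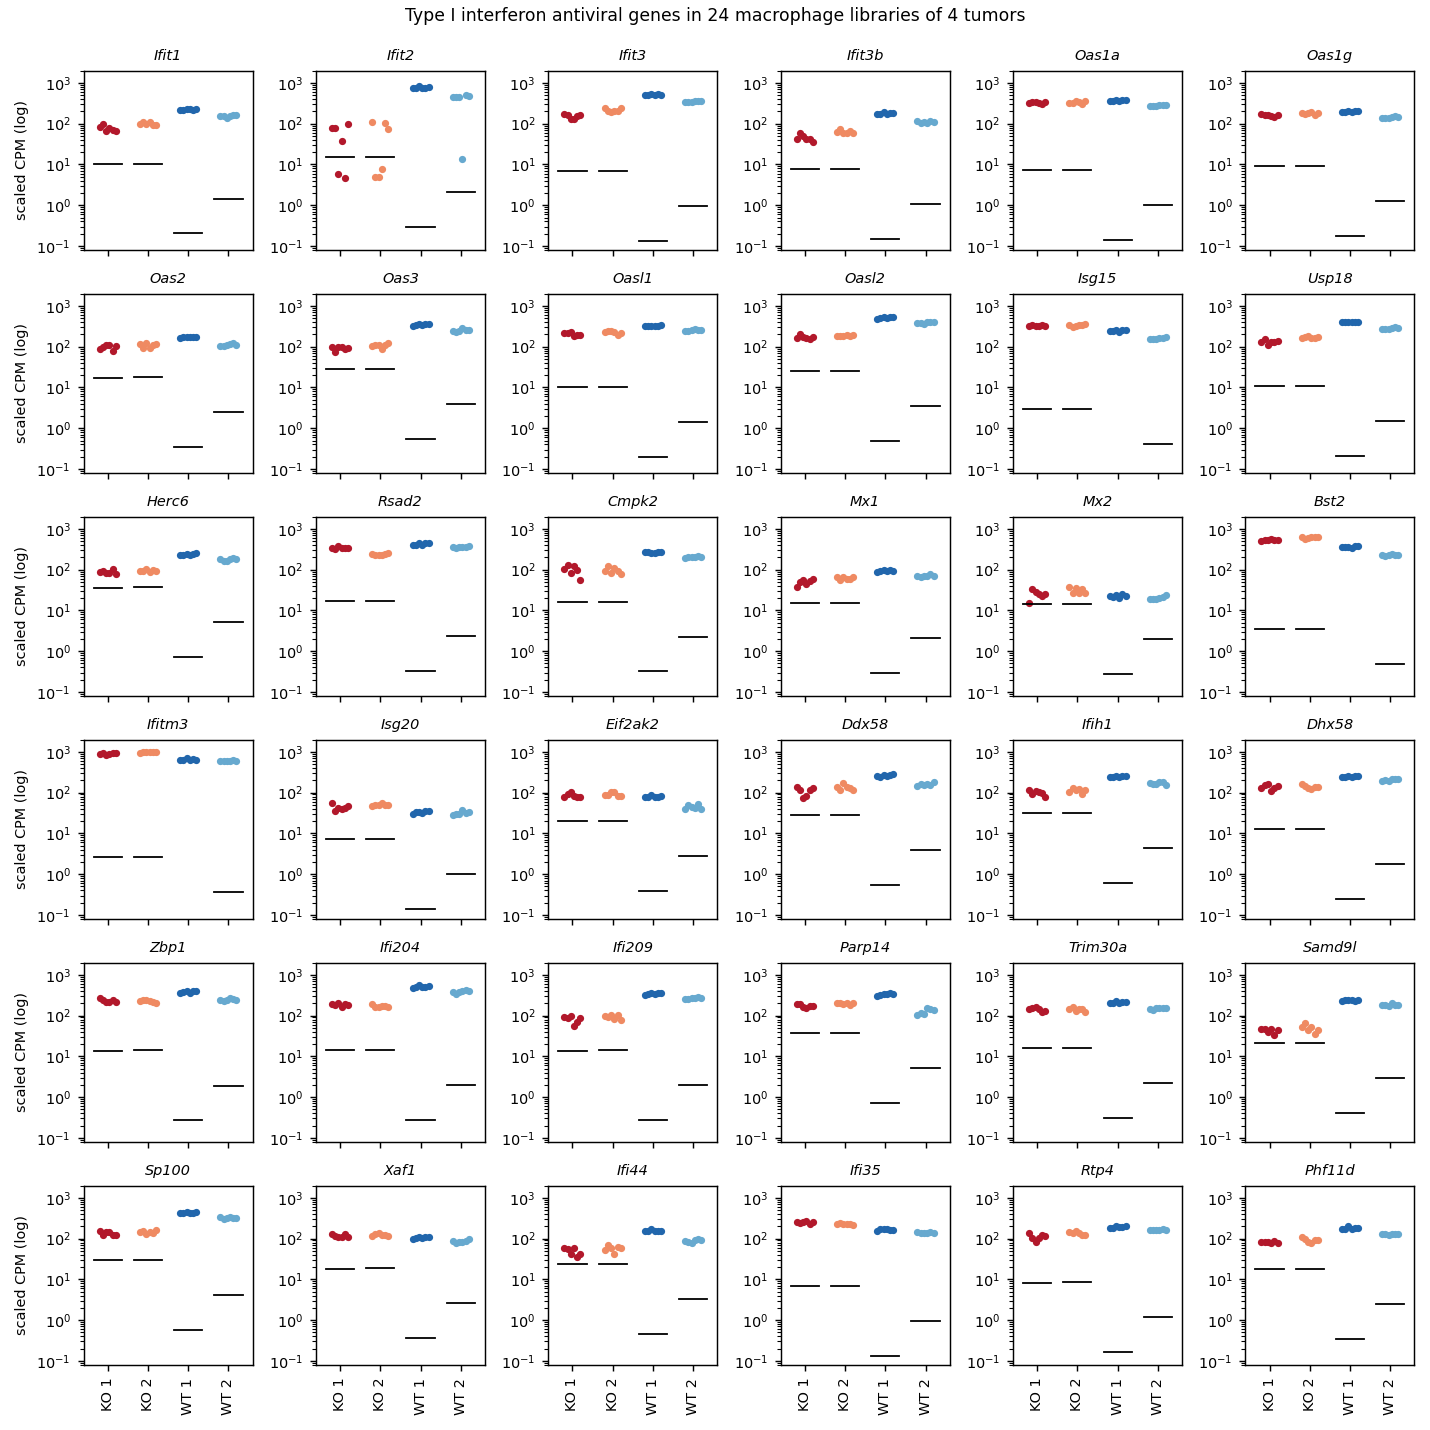
Scaled CPM (log axis) of each of the 36 genes in the 24 libraries, by tumor, APC-KO tumors left of APC-WT tumors; points are libraries and black lines are the expected background. Samd9l, Ifi44 and Mx2 lie close to their background in APC-KO tumors, Ifit2 falls below it in some APC-KO libraries, and Ifitm3 and Bst2 lie far above it everywhere.

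Of the 36 genes, 34 passed the filter on low levels and background and were tested; Mx2 and Eif2ak2 did not pass it. With the length offset, 16 members were lower in APC-KO tumors, 1 was higher and 17 were not called (edgeR's quasi-likelihood F test of summed libraries, Benjamini-Hochberg at 0.05 over all 3941 genes, 2 tumors each). Over all 3941 genes, 21.7% were called lower and 28.4% higher. The median change of the 34 members was -0.54 on the log2 scale, against 0.041 for all tested genes. Without the offset, 18 members were lower and 5 higher, with a median of -0.74 against 0.0044 for all tested genes, of which 30.7% were called lower and 32.7% higher. The 15 members called lower in both fits were Ifit1, Ifit2, Ifit3, Ifit3b, Oas3, Oasl2, Usp18, Herc6, Cmpk2, Dhx58, Ifi204, Ifi209, Rtp4, Samd9l and Sp100; over all genes 17.8% were called lower in both fits. The number called depended on the tumors, with 1 tumor standing for its genotype in each of the following fits. Without APC-KO tumor 1, 3 of 34 members were lower and 0 higher, near the 6.7% of all genes that were lower (11.3% were higher). Without APC-KO tumor 2, 3 members were lower and 0 higher, against 6.52% and 9.77% of all genes. Without APC-WT tumor 1, 13 members were lower and 3 higher, against 19.3% and 26.7%, and without APC-WT tumor 2, 22 were lower and 1 higher, against 21.9% and 26.7%. Ifit2, Ifi209 and Samd9l were the members still called lower in each of these fits and in that without the offset. The share of all genes called lower in every one of these fits was not computed. All 3 stood under 10 times their expected background in both APC-KO tumors, so they passed the filter only through the APC-WT tumors.

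The counts also depended on which genes were admitted. The filter took the mean CPM over the 4 tumors, and 20 of the 34 tested members (58.8%) stood under 10 times their expected background in both APC-KO tumors, as did 57.9% of all tested genes, while 0 did in both APC-WT tumors. A gene that low in APC-KO tumors passed only where it stood far above its background in APC-WT tumors. The filter may thus bear on the calls among such genes, and its part in them was not tested. Of the 2280 tested genes that low, 502 were called lower and 663 higher. Of the 20 members, 10 were called lower, namely Ifit1, Ifit2, Ifit3b, Oas3, Oasl2, Cmpk2, Herc6, Ifi209, Samd9l and Sp100, and Xaf1 was called higher. The counts thus describe the genes tested and not all 36. A filter that weighed the genotypes alike took scaled CPM in place of CPM, and asked for 3 in place of 10 times the expected background. It kept 9374 genes with all 36 members among them. Of these members, 28 were lower and 0 higher with the offset, with a median of -1.19. TMM and the offset were fitted anew on the genes kept, so the weighting was not tested apart from the lower background limit. Over those 9374 genes, 31.8% were lower and 31.7% higher, with a median of -0.027. Isg15, Isg20, Mx1, Oas1a, Oas1g, Oasl1, Ifi44, Ifi35, Ifih1, Ddx58, Zbp1 and Phf11d were called lower there and not under the first filter with the offset. With TMM over 53705 genes and no offset, edgeR called 0 of the 36 members and 0 genes in all, while 34 members had an unadjusted p under 0.05.

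**Figure D3:**
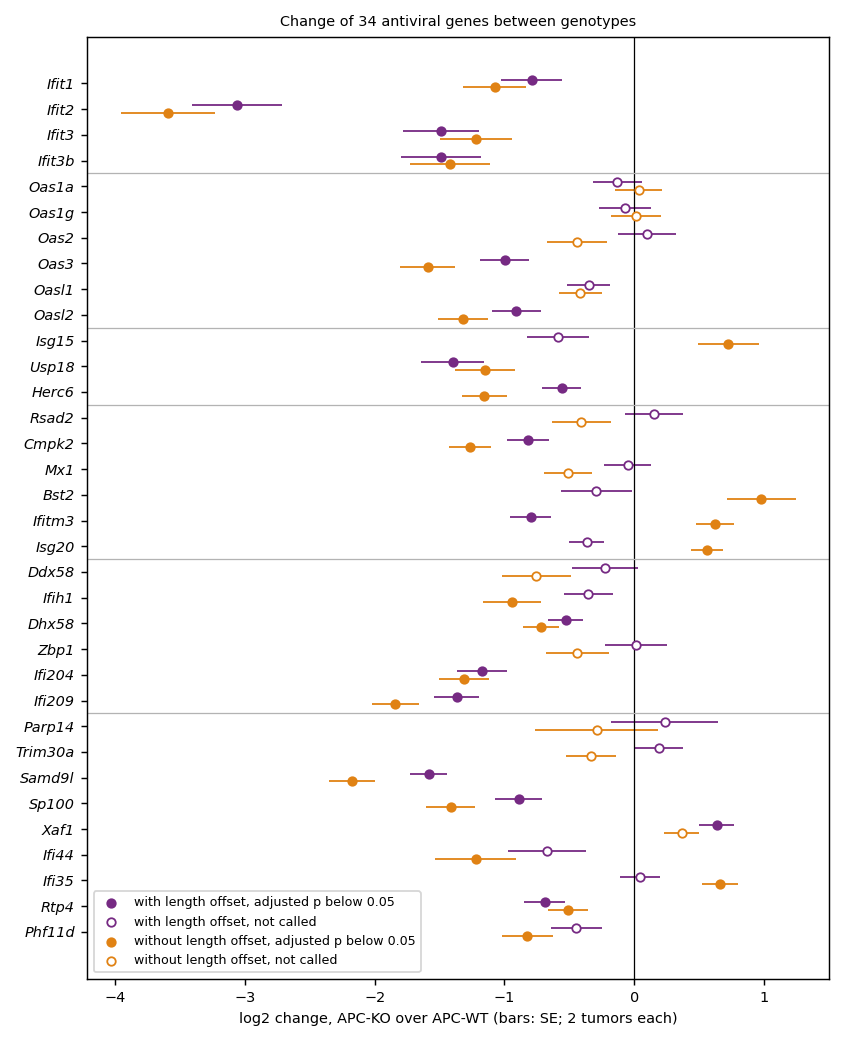
The log2 change of the 34 tested genes, APC-KO over APC-WT, with the length offset (purple) and without it (orange); bars are SE, filled points have an adjusted p below 0.05, and grey lines part the roles in the order IFIT proteins, oligoadenylate synthetases, ISG15 system, other effectors, sensors, regulators and others. All 4 IFIT genes lie left of 0 in both fits, while Isg15, Isg20, Bst2 and Ifitm3 lie left of 0 with the offset and right of it without.

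The offset moved the members by length. The 5 members with a longest transcript of up to 1500 bases, from 678 (Ifitm3) to 1362 (Ifi35), had positive changes without the offset, with a median of 0.66, and a median of -0.37 with it. Of these 5, Isg15, Isg20, Bst2 and Ifitm3 turned to a negative sign with the offset, while Ifi35 kept its positive sign. The 29 longer members had medians of -0.94 without the offset and -0.56 with it. Among them the sign of Rsad2, Oas2, Zbp1, Trim30a and Parp14 was negative without the offset and positive with it, and that of Oas1a and Oas1g was positive without it and negative with it, none of these 7 being called in either fit. Ifitm3 was called in opposite directions, at -0.80 ± 0.15 (SE; edgeR adjusted p = 0.0141) with the offset and 0.62 ± 0.15 (SE; edgeR adjusted p = 0.0191) without it, as were 0.964% of all tested genes.

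**Figure D4:**
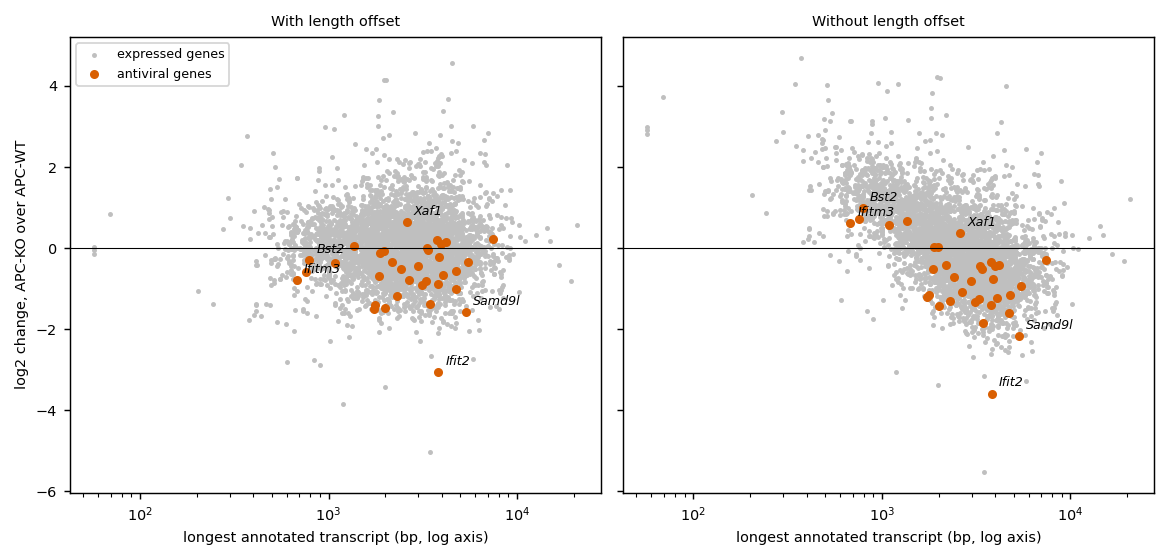
The log2 change, APC-KO over APC-WT, of the 3941 tested genes (grey) and the 34 members among them (orange) against the length of the longest annotated transcript (log axis), with the length offset (left) and without it (right). Without the offset short genes lie above 0 and long genes below it, and the short members Bst2 and Ifitm3 follow that slope; Ifit2 and Samd9l lie low in both panels.

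The IFIT genes encode proteins that bind foreign RNA ends and stop its translation, and all 4 were lower in APC-KO tumors in both fits. Over all tested genes 17.8% were lower in both fits. Ifit1, which holds RNA with an unmethylated cap, had 76.6 ± 11.7 and 100.3 ± 8.07 scaled CPM in the APC-KO tumors, against 222 ± 8.19 and 154 ± 8.21 scaled CPM in the APC-WT tumors (SD, n = 6 libraries each). Its libraries spanned 65.4 to 111 over the 12 APC-KO libraries and 139 to 232 over the 12 APC-WT libraries, so the genotypes did not overlap. The change was -0.79 ± 0.24 (SE; edgeR adjusted p = 0.0456) with the offset, close to the threshold, and the call was lost in some of the alternatives. Ifit3, whose human counterpart stabilises IFIT1, had 153 ± 16.9 and 215 ± 20.5 scaled CPM in the APC-KO tumors, against 521 ± 14.2 and 348 ± 14.3 scaled CPM in the APC-WT tumors (SD, n = 6 libraries each), and its libraries did not overlap either. Its change was -1.49 ± 0.29 (SE; edgeR adjusted p = 0.0149). Ifit3b, a near copy of Ifit3, had 45.3 ± 8.04 and 63.0 ± 5.71 scaled CPM in the APC-KO tumors, against 180.3 ± 6.97 and 110.2 ± 5.96 scaled CPM in the APC-WT tumors, and a change of -1.49 ± 0.31 (SE; edgeR adjusted p = 0.0169). Ifit3 shares 51.2% of its 50-base stretches with Ifit3b, so the split of reads between them is uncertain.

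Ifit2 (ENSMUSG00000045932, chromosome 19, 34550694 to 34576419, GRCm38), an IFIT protein that binds AU-rich RNA, had the largest change of the 34 members and the least even libraries. The 6 libraries of APC-KO tumor 1 had 77.8, 78.6, 5.93, 38.5, 4.72 and 97.0 scaled CPM, and those of APC-KO tumor 2 had 108, 4.98, 4.88, 7.60, 103 and 75.7. Those of APC-WT tumor 1 had 738, 767, 827, 763, 759 and 797, and those of APC-WT tumor 2 had 455, 445, 455, 13.3, 511 and 476. In 5 APC-KO libraries the level was under the 15.4 and 15.5 scaled CPM expected from background in the APC-KO tumors, and 1 APC-WT library lay far under the other 5 of its tumor. With that library included the genotypes overlapped. The change was -3.07 ± 0.35 (SE; edgeR adjusted p = 0.00407) with the offset and -3.59 without it. No other annotated gene shares a 50-base stretch with Ifit2, and the reason for its uneven libraries was not tested.

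Among the oligoadenylate synthetases, which answer double-stranded RNA by making the messenger that activates RNase L, 2 of 6 were lower in APC-KO tumors in each fit and 0 higher. Over all tested genes 21.7% were lower with the offset and 30.7% without it, so 2 of 6 lies near the share without it. Oas3, the synthetase that in human cells responds most to long double-stranded RNA, had 89.98 ± 9.85 and 106 ± 10.4 scaled CPM in the APC-KO tumors, against 349 ± 19.1 and 252 ± 18.4 scaled CPM in the APC-WT tumors (SD, n = 6 libraries each), with 27.7 and 27.9 expected from background in the APC-KO tumors. The genotypes did not overlap, with 72.1 to 120.3 over the 12 APC-KO libraries and 235 to 367 over the 12 APC-WT libraries. Its change was -0.998 ± 0.19 (SE; edgeR adjusted p = 0.0131) with the offset and -1.59 without it. Oasl2, a mouse synthetase with ubiquitin-like domains, had 171 ± 17.6 and 186 ± 4.72 scaled CPM in the APC-KO tumors, against 514 ± 21.6 and 386 ± 23.7 scaled CPM in the APC-WT tumors, and a change of -0.91 ± 0.19 (SE; edgeR adjusted p = 0.0176). The other 4 were not called in either fit. Under the filter that weighed the genotypes alike, Oasl1, Oas1a and Oas1g were called lower, at -1.30, -1.10 and -1.03. Oasl1, which lacks synthetase activity and in mice holds back translation of Irf7, had 209 ± 17.9 and 224 ± 17.3 scaled CPM in the APC-KO tumors, against 326 ± 12.1 and 255 ± 10.4 scaled CPM in the APC-WT tumors, with a change of -0.35 ± 0.17 (SE; edgeR adjusted p = 0.141). Oas2 had 98.0 ± 11.1 and 109 ± 12.5 scaled CPM in the APC-KO tumors, against 171 ± 4.23 and 112 ± 7.22 scaled CPM in the APC-WT tumors, and changes of 0.099 ± 0.22 (SE; edgeR adjusted p = 0.729) with the offset and -0.44 without it, its APC-KO tumors lying near APC-WT tumor 2. Oas1a had 327 ± 11.4 and 332 ± 20.9 scaled CPM in the APC-KO tumors, against 369.7 ± 14.3 and 282 ± 10.52 scaled CPM in the APC-WT tumors, and changed by -0.13 (0.033 without the offset), while Oas1g had 161 ± 11.5 and 182 ± 9.74 scaled CPM in the APC-KO tumors, against 198 ± 7.92 and 144 ± 5.48 scaled CPM in the APC-WT tumors, and changed by -0.07 (0.016 without the offset). Both had APC-KO levels between those of the 2 APC-WT tumors. Oas1a shares 57.6% of its 50-base stretches with Oas1g, so their counts are uncertain apart.

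In the ISG15 system, 2 of 3 members were lower in APC-KO tumors in both fits, against 17.8% of all tested genes. Usp18, which removes Isg15 from proteins and blocks signalling at the receptor subunit Ifnar2, had 133 ± 15.3 and 171 ± 9.17 scaled CPM in the APC-KO tumors, against 401 ± 7.79 and 286 ± 14.2 scaled CPM in the APC-WT tumors (SD, n = 6 libraries each). Its libraries spanned 109 to 187 over the 12 APC-KO libraries and 272 to 413 over the 12 APC-WT libraries, without overlap. The change was -1.40 ± 0.24 (SE; edgeR adjusted p = 0.0109). Herc6, the main ligase that attaches Isg15 in mice, had 87.4 ± 8.78 and 94.1 ± 5.39 scaled CPM in the APC-KO tumors, against 237 ± 7.998 and 176 ± 9.11 scaled CPM in the APC-WT tumors, with 36.4 and 36.7 expected from background in the APC-KO tumors. Its change was -0.56 ± 0.15 (SE; edgeR adjusted p = 0.0364) with the offset, -1.15 without it, and -0.96 with the offset and the expected background subtracted. Isg15 itself had 329 ± 4.16 and 333 ± 18.3 scaled CPM in the APC-KO tumors, against 246 ± 8.74 and 159.6 ± 5.46 scaled CPM in the APC-WT tumors, so that every APC-KO library lay above every APC-WT library on this scale. Its change was -0.59 ± 0.24 (SE; edgeR adjusted p = 0.0987) with the offset and 0.73 ± 0.24 (SE; edgeR adjusted p = 0.0486) without it, so its sign turned with the offset; its transcript has 756 bases.

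The other effectors act on viral entry, nucleotides, RNA or release, and 2 of the 6 tested, Cmpk2 and Ifitm3, were lower with the offset, of which Ifitm3 was called higher without it. Of all tested genes 21.7% were lower with the offset. Cmpk2, a mitochondrial nucleotide kinase encoded next to Rsad2 on chromosome 12, had 99.4 ± 26.8 and 95.9 ± 15.9 scaled CPM in the APC-KO tumors, against 267 ± 6.62 and 204 ± 6.85 scaled CPM in the APC-WT tumors. No library of either genotype crossed into the range of the other. Its change was -0.82 ± 0.16 (SE; edgeR adjusted p = 0.0151) with the offset and -1.26 without it. Rsad2 (viperin), which turns CTP into a chain terminator of viral RNA, had 346 ± 21.1 and 240.1 ± 12.03 scaled CPM in the APC-KO tumors, against 426 ± 22.2 and 361 ± 13.5 scaled CPM in the APC-WT tumors, with changes of 0.15 ± 0.22 (SE; edgeR adjusted p = 0.598) with the offset and -0.41 without it, neither of which passed. APC-KO tumor 2 stood lowest for Rsad2, and APC-KO tumor 1 lay near APC-WT tumor 2 on this scale.

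Ifitm3 had 909.6 ± 37.9 and 988 ± 19.1 scaled CPM in the APC-KO tumors, against 651 ± 34.6 and 602 ± 17.2 scaled CPM in the APC-WT tumors (SD, n = 6 libraries each), and Bst2 had 531 ± 25.5 and 618 ± 30.7 scaled CPM in the APC-KO tumors, against 364 ± 18.1 and 228 ± 5.51 scaled CPM in the APC-WT tumors. Every APC-KO library lay above every APC-WT library for both genes on the scaled CPM scale. The change of Bst2 was -0.29 ± 0.27 (SE; edgeR adjusted p = 0.409) with the offset and 0.98 ± 0.27 (SE; edgeR adjusted p = 0.0289) without it. Isg20, an exonuclease that degrades RNA, had 43.8 ± 7.07 and 49.9 ± 2.41 scaled CPM in the APC-KO tumors, against 33.1 ± 2.22 and 31.6 ± 3.32 scaled CPM in the APC-WT tumors, with changes of -0.37 with the offset, not called, 0.56 without it, called higher, and -0.51 ± 0.15 (SE; edgeR adjusted p = 0.0484) with the offset and the expected background subtracted. Mx1, a GTPase that traps viral nucleocapsids and is defective in C57BL/6 mice, had 50.2 ± 8.25 and 61.9 ± 4.84 scaled CPM in the APC-KO tumors, against 92.6 ± 4.18 and 70.8 ± 3.50 scaled CPM in the APC-WT tumors, with 14.8 and 14.96 expected from background in the APC-KO tumors. Its changes were -0.049 ± 0.18 (SE; edgeR adjusted p = 0.834) with the offset and -0.51 without it. Under the filter that weighed the genotypes alike, Mx1 stood at -0.87 and was called lower. Its neighbour Mx2 had 24.8 ± 6.13 and 31.0 ± 4.97 scaled CPM in the APC-KO tumors, against 22.9 ± 1.69 and 20.5 ± 2.02 scaled CPM in the APC-WT tumors, and 14.2 and 14.3 of that was expected from background in the APC-KO tumors. Eif2ak2 (PKR), which halts translation when it binds double-stranded RNA, had 85.4 ± 10.4 and 91.2 ± 8.93 scaled CPM in the APC-KO tumors, against 79.7 ± 3.16 and 44.9 ± 4.40 scaled CPM in the APC-WT tumors, with 20.03 and 20.2 expected from background in the APC-KO tumors. Mx2 and Eif2ak2 were tested only under the filters that kept more genes. With the one that weighed the genotypes alike, Mx2 changed by -0.38 ± 0.22 (SE; edgeR adjusted p = 0.193) and Eif2ak2 by 0.39 ± 0.27 (SE; edgeR adjusted p = 0.258).

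Among the sensors of nucleic acid, 3 of 6 were lower in APC-KO tumors with the offset and 4 without it, against 21.7% and 30.7% of all tested genes. The PYHIN proteins Ifi204 and Ifi209, of a family that binds DNA, had the largest changes of the group. Ifi204 had 187 ± 15.8 and 171 ± 14.2 scaled CPM in the APC-KO tumors, against 513 ± 24.3 and 386 ± 23.6 scaled CPM in the APC-WT tumors (SD, n = 6 libraries each). Its libraries spanned 159 to 208 over the 12 APC-KO libraries and 348 to 551 over the 12 APC-WT libraries. The change was -1.18 ± 0.19 (SE; edgeR adjusted p = 0.00943). Ifi209 had 80.5 ± 15.8 and 92.1 ± 11.1 scaled CPM in the APC-KO tumors, against 346 ± 14.7 and 270.0 ± 11.7 scaled CPM in the APC-WT tumors, and a change of -1.37 ± 0.17 (SE; edgeR adjusted p = 0.00508), also without overlap. Ifi204 shares 20.02% and Ifi209 33.7% of its 50-base stretches with other genes, mostly of the same family, so part of their counts may belong to relatives. Of the cytosolic RNA helicases, Dhx58 (LGP2), which modulates the other 2, had 138 ± 17.9 and 138 ± 12.8 scaled CPM in the APC-KO tumors, against 249.9 ± 8.74 and 206 ± 11.6 scaled CPM in the APC-WT tumors. Its change was -0.53 ± 0.14 (SE; edgeR adjusted p = 0.032); an antisense gene overlaps it, and the use of strand in counting was not given. Ifih1 (MDA5), which senses long double-stranded RNA, had 99.5 ± 12.8 and 113 ± 13.5 scaled CPM in the APC-KO tumors, against 247 ± 8.05 and 167 ± 9.92 scaled CPM in the APC-WT tumors, with 32.0 and 32.3 expected from background in the APC-KO tumors. Its changes were -0.35 with the offset, not called, and -0.94 without it, called lower. Ddx58 (RIG-I), which senses RNA ends with a triphosphate, had 110.2 ± 25.8 and 135 ± 22.7 scaled CPM in the APC-KO tumors, against 261 ± 13.6 and 161 ± 11.05 scaled CPM in the APC-WT tumors, with 27.6 and 27.9 expected from background in the APC-KO tumors. Its changes were -0.22 ± 0.26 (SE; edgeR adjusted p = 0.497) with the offset and -0.76 without it. Zbp1, which binds left-handed nucleic acid and can start necroptosis, had 233 ± 19.9 and 225 ± 15.8 scaled CPM in the APC-KO tumors, against 384 ± 16.5 and 247 ± 13.9 scaled CPM in the APC-WT tumors, with APC-WT tumor 1 above the other 3 tumors. Its change was 0.013 ± 0.24 (SE; edgeR adjusted p = 0.971) with the offset, -0.44 without it, and -0.82 under the filter that weighed the genotypes alike, so its direction turned.

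Of the 9 regulators and other members, 3 were lower and 1 was higher with the offset, against 21.7% and 28.4% of all tested genes. Samd9l, a brake on cell growth and translation, had 42.8 ± 5.12 and 49.1 ± 10.54 scaled CPM in the APC-KO tumors, against 235 ± 9.05 and 182 ± 8.46 scaled CPM in the APC-WT tumors (SD, n = 6 libraries each), with 21.3 and 21.5 expected from background in the APC-KO tumors. Its libraries spanned 33.8 to 65.5 over the 12 APC-KO libraries and 173 to 243 over the 12 APC-WT libraries. The change was -1.58 ± 0.14 (SE; edgeR adjusted p = 0.00289) with the offset, and -2.16 once the expected background was subtracted. Sp100, a part of the PML nuclear bodies, had 136 ± 13.5 and 145 ± 10.1 scaled CPM in the APC-KO tumors, against 433 ± 12.5 and 323 ± 13.9 scaled CPM in the APC-WT tumors, with 29.6 and 29.9 expected from background in the APC-KO tumors. Its change was -0.89 ± 0.18 (SE; edgeR adjusted p = 0.0163) with the offset and -1.41 without it. Rtp4, known in mice as a chaperone of receptors, had 109.8 ± 17.5 and 137 ± 12.5 scaled CPM in the APC-KO tumors, against 193 ± 7.41 and 165 ± 3.97 scaled CPM in the APC-WT tumors, and a change of -0.69 ± 0.16 (SE; edgeR adjusted p = 0.0225); its annotated span overlaps other genes.

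Xaf1, which counters the inhibitor of apoptosis XIAP, was the member called higher. It had 117 ± 10.4 and 123 ± 8.46 scaled CPM in the APC-KO tumors, against 105 ± 4.83 and 85.3 ± 6.88 scaled CPM in the APC-WT tumors (SD, n = 6 libraries each). Its libraries spanned 108 to 137 over the 12 APC-KO libraries and 76.2 to 109.6 over the 12 APC-WT libraries, a slight overlap. The change was 0.63 ± 0.14 (SE; edgeR adjusted p = 0.0187) with the offset, 0.37 ± 0.14 (SE; edgeR adjusted p = 0.0704) without it, and -0.34 under the filter that kept more genes and weighed the genotypes alike, so neither its call nor its direction held in every fit.

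The other 5 members of this group were not called with the offset. Ifi44 had 48.0 ± 9.46 and 57.1 ± 9.03 scaled CPM in the APC-KO tumors, against 157 ± 7.22 and 88.2 ± 6.39 scaled CPM in the APC-WT tumors, with 24.01 and 24.2 expected from background in the APC-KO tumors, and a change of -0.67 ± 0.30 (SE; edgeR adjusted p = 0.122). Ifi44 was called lower once the expected background was subtracted, at -1.25 ± 0.34 (SE; edgeR adjusted p = 0.036). Phf11d had 81.7 ± 4.12 and 92.7 ± 11.5 scaled CPM in the APC-KO tumors, against 182 ± 12.2 and 129 ± 2.62 scaled CPM in the APC-WT tumors, with 17.6 and 17.8 expected from background in the APC-KO tumors, and a change of -0.45 ± 0.20 (SE; edgeR adjusted p = 0.119). The libraries of Ifi44 and Phf11d did not overlap between genotypes, and both were called lower without the offset, at -1.22 and -0.82. Ifi35, a partner of Nmi, had 249 ± 11.4 and 228 ± 6.93 scaled CPM in the APC-KO tumors, against 165 ± 4.09 and 139 ± 4.80 scaled CPM in the APC-WT tumors, with changes of 0.048 with the offset, 0.66 without it, and -0.82 under the filter that weighed the genotypes alike, so its direction turned. Trim30a, which in mice restrains signalling by Toll-like receptors, had 143 ± 14.2 and 143 ± 13.3 scaled CPM in the APC-KO tumors, against 211 ± 12.5 and 148 ± 5.07 scaled CPM in the APC-WT tumors, and changes of 0.19 with the offset and -0.33 without it. Parp14, an ADP-ribosyltransferase, had 175 ± 16.3 and 198 ± 8.60 scaled CPM in the APC-KO tumors, against 336 ± 15.9 and 128 ± 18.8 scaled CPM in the APC-WT tumors, with 36.5 and 36.8 expected from background in the APC-KO tumors. Its changes were 0.24 ± 0.41 (SE; edgeR adjusted p = 0.657) with the offset and -0.29 without it. For Parp14 the 2 APC-WT tumors stood at the ends of the range with the APC-KO tumors between them.

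Over all members on the scaled CPM scale, the 12 APC-KO libraries lay below all 12 APC-WT libraries for 17 of the 34 tested genes and above them for 4 (Isg15, Ifi35, Bst2 and Ifitm3). Over all 3941 genes this held for 28.4% and 28.1%. In the fit of libraries, which measures spread between libraries and not between tumors, pairing each APC-KO tumor with each APC-WT tumor, 19 members were lower in all 4 pairs and Xaf1 was higher in each, against 28.3% and 32.2% of all genes. The pairs share tumors and are not independent. The median change of the 34 members was -0.79 for APC-KO tumor 1 and -0.69 for APC-KO tumor 2 against APC-WT tumor 1, and -0.36 and -0.22 against APC-WT tumor 2.

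The tumors of a genotype differed in these genes as well. APC-WT tumor 2 lay below APC-WT tumor 1 in 32 of 34 members and above it in 0 (edgeR on libraries, 6 each), against 27.6% and 19.8% of all genes, with a median of -0.43 against -0.025 for all genes. The 2 members not called were Isg20, at -0.13 ± 0.081 (SE; edgeR adjusted p = 0.219), and Ifit2, at -0.97 ± 0.69 (SE; edgeR adjusted p = 0.268). Parp14 differed most, with 128 ± 18.8 scaled CPM in APC-WT tumor 2 and 336 ± 15.9 in APC-WT tumor 1 and a difference of -1.20 ± 0.075 (SE; edgeR adjusted p = 1.51e-12). Ifi44 differed by -0.81, Ifit3b by -0.73, Bst2 by -0.69 and Isg15 by -0.64. The median over the members was thus -0.43 between the APC-WT tumors and -0.54 between genotypes. In Parp14, Zbp1, Ddx58, Oas2, Ifi44, Isg15 and Bst2, among others, the difference between the APC-WT tumors was larger in size than the change between genotypes with the offset.

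Between the APC-KO tumors the differences were smaller and mostly of the other sign. In APC-KO tumor 2, 11 members were higher and 3 lower than in APC-KO tumor 1, with a median of 0.16, against 15.5% and 18.3% of all genes. Ifit3 was higher by 0.49 ± 0.063 (SE; edgeR adjusted p = 8.28e-07), Ifit3b by 0.46, Ifit1 by 0.37 and Usp18 by 0.37. Rsad2 was lower, with 240.1 ± 12.03 scaled CPM in APC-KO tumor 2 and 346 ± 21.1 in APC-KO tumor 1 and a difference of -0.54 ± 0.044 (SE; edgeR adjusted p = 3.18e-10). Ifi204, at -0.15, and Ifi35, at -0.099, were the other members called lower. With library 3 or library 6 of every tumor left out, 1 member was called lower.

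**Figure D5:**
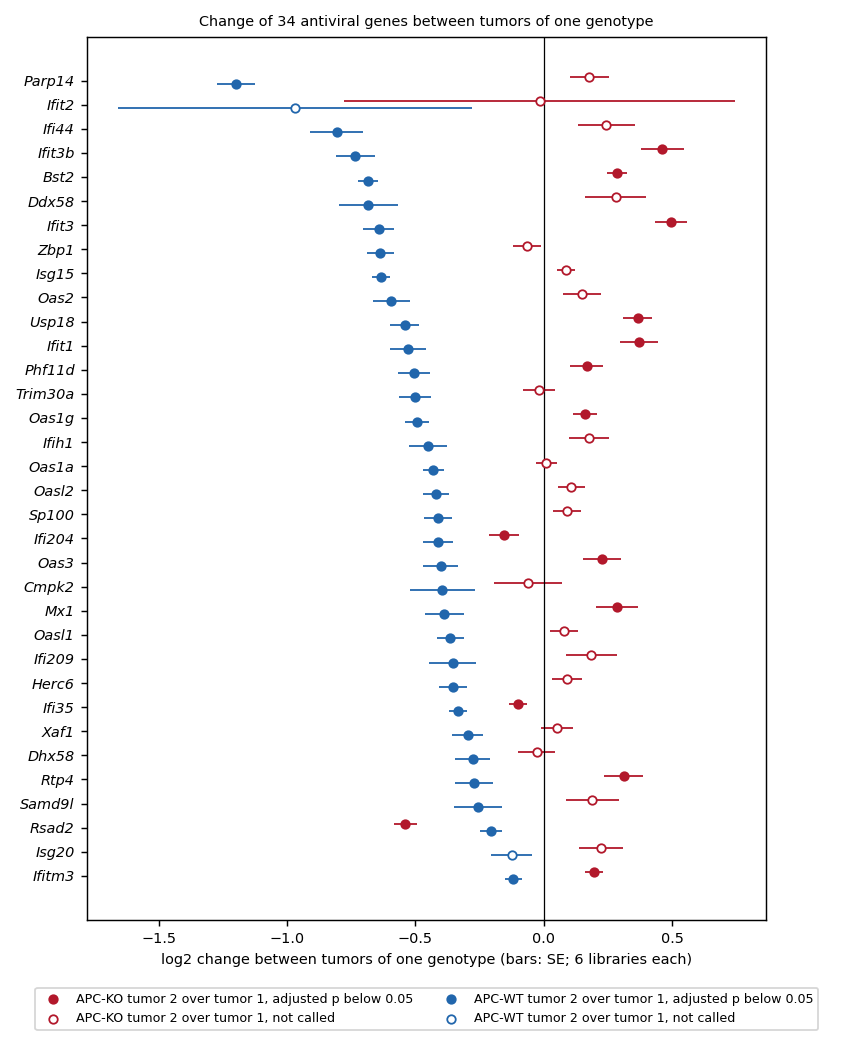
The log2 difference between tumor 2 and tumor 1 of each genotype for the 34 tested genes, with the length offset; bars are SE over 6 libraries each, red is APC-KO and blue is APC-WT, and filled points have an adjusted p below 0.05. The APC-WT points lie left of 0 for all 34 genes, from -1.20 (Parp14) to -0.12 (Ifitm3), while most APC-KO points lie right of it.

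Members with and without a match to the core in their window can be set side by side. Of 13 tested members with a match, 5 were lower and 0 higher, with a median change of -0.35. Of 13 tested members with a window and no match, 7 were lower and 1 higher, with a median of -0.67. Over all tested genes 21.7% were lower and 28.4% higher. All tested genes were not split by the core, and a relation between the core and the change was not tested. Ifit1, Ifit3, Ifit3b, Oas3 and Ifitm3 made up the members with a match that were called lower, Ifitm3 turning with the offset. Isg15, Oas1a, Oas1g and Bst2, which carry the longer run, were not called with the offset.

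Of 18 type I interferon genes, the ligands of the pathway, 0 passed the filter. Ifnb1 had 6.88 ± 2.29 and 10.96 ± 3.75 scaled CPM in the APC-KO tumors, where 2.94 and 2.97 were expected from background, against 0.837 ± 0.277 and 1.48 ± 0.423 in the APC-WT tumors, where 0.0573 and 0.410 were. Ifnb1, Ifna5, Ifna13, Ifna14 and Ifna15 lay above their expected background in all 4 tumors at low levels. Ifna13 had 7.91 ± 3.59 and 7.03 ± 2.43 scaled CPM in the APC-KO tumors, where 3.21 and 3.24 were expected from background. Summed over the 18 genes, the level over expected background was 1.01 and 1.11 in the APC-KO tumors and 2.01 and 1.18 in the APC-WT tumors.

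Of the 12 genes of the receptor, its kinases and the transcription factors, 8 were lower and 1 was higher in APC-KO tumors with the offset (median -0.60), and 9 and 1 without it. Over all tested genes 21.7% were lower and 28.4% higher with the offset, and 30.7% and 32.7% without it. Irf1 and Irf5, factors that bind interferon promoters and response elements, changed by -1.09 ± 0.15 (SE; edgeR adjusted p = 0.00563) and -1.02 ± 0.15 (SE; edgeR adjusted p = 0.00663). Irf3, which starts transcription of Ifnb1, was the gene called higher, with 107 ± 12.4 and 97.0 ± 13.5 scaled CPM in the APC-KO tumors, against 53.4 ± 2.85 and 53.0 ± 3.74 in the APC-WT tumors. Its change was 0.89 ± 0.11 (SE; edgeR adjusted p = 0.00483) with the offset and 0.93 without it, and -0.045 under the filter that weighed the genotypes alike. Within genotypes, APC-WT tumor 2 had 1 gene of the list lower and 5 higher than APC-WT tumor 1, against 27.6% and 19.8% of all genes. APC-KO tumor 2 had 7 lower and 1 higher than APC-KO tumor 1, against 18.3% and 15.5% of all genes. The calls of this list fell without either APC-KO tumor, as did those of all genes.

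Of 7 tested sensors and adaptors upstream of the interferons, 5 were lower and 0 higher (median -0.71), against 21.7% and 28.4% of all tested genes. Unc93b1, which carries Toll-like receptors to endosomes, had 922 ± 35.3 and 1046 ± 32.2 scaled CPM in the APC-KO tumors, against 2991 ± 73.1 and 2691 ± 70.6 in the APC-WT tumors. Its change was -1.40 ± 0.16 (SE; edgeR adjusted p = 0.00443). The adaptor Myd88 changed by -0.73 ± 0.13 (SE; edgeR adjusted p = 0.0115) and Tmem173 (STING) by -0.71 ± 0.14 (SE; edgeR adjusted p = 0.0161). Tlr7, a sensor of single-stranded RNA, changed by -1.38 ± 0.35 (SE; edgeR adjusted p = 0.0295). Tlr7 had 23.3 ± 4.06 and 34.5 ± 4.34 scaled CPM in the APC-KO tumors, where 15.99 and 16.1 were expected from background. In the APC-WT tumors Tlr7 had 144 ± 9.39 and 78.1 ± 4.69. APC-WT tumor 2 differed from APC-WT tumor 1 by -0.87 for Tlr7, which thus lay close to background in APC-KO tumors and was uneven between APC-WT tumors. Among 9 tested inhibitors, 4 were lower and 2 higher (median -0.42), against the same shares of all genes. Trex1, an exonuclease that clears cytosolic DNA, changed by -1.36 ± 0.13 (SE; edgeR adjusted p = 0.00293) with the offset and -0.42 without it, Socs3 by -1.44 ± 0.18 (SE; edgeR adjusted p = 0.00475) and the phosphatase Ptpn6 by -1.01 ± 0.14 (SE; edgeR adjusted p = 0.00612), while Pias4, an inhibitor of Stat proteins, was higher by 1.34 ± 0.19 (SE; edgeR adjusted p = 0.00629).

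Of 38 tested genes on a list of further interferon-induced genes, 19 were lower and 3 higher, with a median of -0.54. Over all tested genes 21.7% were lower and 28.4% higher. Slfn1 changed by -0.94 ± 0.099 (SE; edgeR adjusted p = 0.0036), Ifi47 by -1.29 ± 0.15 (SE; edgeR adjusted p = 0.00407), Phf11b by -1.41 ± 0.20 (SE; edgeR adjusted p = 0.00649) and Znfx1 by -1.45 ± 0.22 (SE; edgeR adjusted p = 0.00812). Without the offset Phf11b stood at -0.59. Znfx1 had 152.8 ± 23.5 and 164 ± 8.51 scaled CPM in the APC-KO tumors, where 32.1 and 32.4 were expected from background. In the APC-WT tumors it had 781 ± 29.5 and 472 ± 41.0. Under the filter that weighed the genotypes alike, the genes of these lists named as lower stood between -2.40 (Socs3) and -1.66 (Tmem173), and Pias4 stood at 0.39. In APC-WT tumor 2, 27 of the 38 were lower and 4 higher than in APC-WT tumor 1, with a median of -0.40. Of all genes 27.6% were lower and 19.8% higher there. The calls of the upstream sensors, the inhibitors and the further genes also fell without either APC-KO tumor, as did those of all genes.

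The markers of the sort were present and moved with the genotype. Itgam (CD11b) had 276 ± 50.3 and 277 ± 27.6 scaled CPM in the APC-KO tumors, against 1607 ± 62.7 and 1743 ± 132 in the APC-WT tumors, and changed by -1.98 ± 0.15 (SE; edgeR adjusted p = 0.00253). Adgre1 (F4/80) had 271 ± 27.7 and 283 ± 23.8 scaled CPM in the APC-KO tumors, against 1276 ± 53.3 and 1127 ± 48.6 in the APC-WT tumors, and changed by -1.65 ± 0.15 (SE; edgeR adjusted p = 0.00293). Ptprc (CD45) had 387 ± 42.9 and 403 ± 8.55 scaled CPM in the APC-KO tumors, against 1143 ± 42.9 and 1131 ± 50.7 in the APC-WT tumors, and changed by -0.95 ± 0.14 (SE; edgeR adjusted p = 0.00762). The changes of Itgam and Adgre1 were larger in size than those of all 34 members but Ifit2. Of the 10 macrophage markers, Csf1r and Cd68 were also lower with the offset and 0 were higher, against 21.7% and 28.4% of all tested genes. Cd68 stood at -1.03 with the offset and at -0.27, not called, without it. The 10 summed to 22971 ± 276 and 23728 ± 255 in the APC-KO tumors, of which 172 and 174 were expected from background, against 26866 ± 883 and 22685 ± 870.2 in the APC-WT tumors, of which 3.36 and 24.04 were, and Lyz2, C1qa and C1qb, none of them called, made up most of these sums.

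Markers of other cells are given with the background expected in their sums. Markers of plasmacytoid dendritic cells, a rich source of interferon, summed to 416 ± 21.6 and 464 ± 31.7 in the APC-KO tumors, of which 196 and 198 were expected from background, against 179 ± 4.72 and 173 ± 4.22 in the APC-WT tumors, of which 3.83 and 27.4 were. Most of these sums came from Tcf4, a factor that other cells express too, while Siglech, a defining marker, had 17.3 ± 4.06 and 13.0 ± 5.82 scaled CPM in the APC-KO tumors, against 0.304 ± 0.103 and 2.46 ± 0.676 in the APC-WT tumors, with 13.3 and 13.4 expected from background in the APC-KO tumors. Of these 7 markers 0 passed the filter. Fibroblast markers summed to 348 ± 38.9 and 526 ± 18.1 in the APC-KO tumors, of which 175 and 177 were expected from background, against 1583 ± 54.2 and 912 ± 51.0 in the APC-WT tumors, of which 3.41 and 24.4 were, with 2 of 3 tested genes lower and 0 higher. Over all tested genes these shares were 21.7% and 28.4%. Neutrophil markers summed to 490.1 ± 30.2 and 252 ± 16.3 in the APC-KO tumors, of which 47.0 and 47.4 were expected from background, against 319.9 ± 8.80 and 577 ± 34.2 in the APC-WT tumors, of which 0.917 and 6.56 were. Epithelial markers summed to 221 ± 19.6 and 277 ± 12.4 in the APC-KO tumors, of which 47.1 and 47.5 were expected from background, against 170.3 ± 5.34 and 533 ± 14.5 in the APC-WT tumors, of which 0.919 and 6.57 were. Those of T and NK cells summed to 122 ± 10.99 and 196 ± 4.58 in the APC-KO tumors, of which 87.2 and 88.0 were expected from background, against 20.05 ± 1.73 and 35.98 ± 1.30 in the APC-WT tumors, of which 1.70 and 12.2 were. Those of B cells summed to 81.8 ± 12.01 and 90.02 ± 4.95 in the APC-KO tumors, of which 47.6 and 48.0 were expected from background, against 21.5 ± 1.77 and 31.1 ± 2.73 in the APC-WT tumors, of which 0.929 and 6.64 were. No marker of these lists was at 0 in a tumor. The part of these cells, and of the sort markers, in the differences of the 36 genes was not tested.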

How the data were processed

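Counts, whole numbers per Ensembl gene ID (55487 IDs, 24 libraries), are given as the authors deposited them. The submitters' processing notes name bcl2fastq 2.20.0, HISAT2, StringTie and the build mm9; roles, settings and strand were not given in the sources used here. Per the labels' protocols, total RNA of the sorted cells was sequenced by a Nextera XT protocol for ultra low input. Symbols, lengths and positions came from GENCODE M21 (GRCm38) by ID, and promoter windows from RefSeq (GRCm38.p6), so positions in the text are not those of mm9.

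Expressed genes had a mean CPM over the 4 tumors of at least 10 and at least 10 times their expected background, the count per kb of exon of 1974 olfactory and vomeronasal receptor genes. A total of 12 loci resembling a satellite repeat, with at least 0.1 of 15-mers in common with Gm10800, were left out. Genotypes were compared with edgeR 4.0.16 (quasi-likelihood test, R 4.3.3) on sums over the 6 libraries of each tumor, with TMM and an offset for transcript length (loess, span 0.5, of log2 level on log2 length of the longest transcript, fitted per tumor). Comparisons of single tumors were fitted on the 24 libraries, and their p-values measure spread between libraries only. Benjamini-Hochberg adjustment ran over all 3941 genes. Alternatives used DESeq2 1.42.0 and limma 3.58.1, and Python 3.11.15 made tables and figures. The edgeR fits of genotypes and of libraries were also tried on simulated data, and DESeq2 and limma were not.

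The members, lists and offset were chosen with earlier results of these data known. Every member is named, and from each pathway list the 4 tested genes with the smallest p, except for 1 gene and 1 promoter motif that are not reported here. Protein sequences were not compared. Libraries of a tumor differed beyond sampling noise and were all kept. Counts carry no molecular identifiers, so a depth of 8895722 to 93568353 counts per library sets only the counting error.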

Additional observations from a re-analysis of the deposited data

Results flagged for a closer look

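In 9 of 144 groups of 6 libraries, 1 library lay apart from the other 5 by more than Dixon's limit for its group, and chance alone gives about 1 in 20 such groups. Ifit2 in APC-WT tumor 2 had 13.3 scaled CPM in library 4, against 445 to 511 in the other 5 libraries. The same gene was also low in 5 APC-KO libraries, where no single library stood apart. Without library 4, the counts of members called between genotypes stayed at 16 lower and 1 higher, and the cause was not tested.

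The other 8 cases were smaller. In APC-KO tumor 1, library 3 had 387 scaled CPM of Rsad2, against 328 to 344 in the others, and library 2 had 204 of Oasl2, against 151 to 171. In APC-KO tumor 2, library 4 had 54.6 of Isg20, against 47.9 to 50.2. In APC-WT tumor 1, library 3 had 170.5 of Ifi44, against 150.0 to 158, and 206 of Phf11d, against 175 to 181, while library 1 had 157 of Ifi35, against 166 to 168. In APC-WT tumor 2, library 3 had 139 of Ifit1, against 154 to 161, and library 2 had 296 of Sp100, against 320.5 to 334.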

How the results depend on the processing

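Merged exonic length in the offset, other size factors, limma-trend and subtraction of the background left 15 to 17 members lower and 1 higher. Over all 3941 genes these fits called 860 to 944 lower and 1034 to 1184 higher, against 854 and 1119 in the main fit. DESeq2 gave 20 members lower and 1 higher, and its calls over all genes rose as well, to 1197 lower and 1439 higher. Without the offset, 5 members were higher and 6 were higher in all 4 pairs, with Isg15 at 0.73, Isg20 at 0.56, Bst2 at 0.98 and Ifitm3 at 0.62; with the background subtracted as well, an alternative chosen after seeing the data, 5 were higher, the median was -0.82, and these 4 genes stood at 0.91, 0.54, 1.17 and 0.81. Over all 3941 genes, 1289 were higher without the offset, and 1284 were with the background subtracted as well. The share of all genes higher in all 4 pairs without the offset was not computed. A filter that weighed the genotypes alike and asked for 3 in place of 10 times the expected background kept 9374 genes. It called 28 members lower and 0 higher (median -1.19, against -0.027 for all genes), with 2980 genes lower and 2973 higher. Under it Ifi35 stood at -0.82, Xaf1 at -0.34, Zbp1 at -0.82 and Irf3 at -0.045. With TMM over 53705 genes and no offset, edgeR called 0 genes lower and 0 higher (0 and 0 members), the lowest adjusted p being 0.0974, while 18647 genes, 34 members among them, had an unadjusted p under 0.05. The median of the 3941 expressed genes then lay at -4.01 and that of the members at -4.73, with Xaf1 at -3.74, Irf3 at -3.08 and Pias4 at -2.79, less low than the expressed genes as a whole.

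With a tumor left out, the lone sample being assumed to vary like the others, 3 to 22 members were lower and 0 to 3 higher, with medians from -0.70 to -0.27, and 257 to 864 genes lower and 385 to 1051 higher. With each library number left out, 15 to 16 members were lower and 1 higher, with 812 to 878 genes lower and 1058 to 1152 higher; the call of Ifit1 was lost in 3 of these 6 fits, with other size factors and with the background subtracted. Library numbers did not pair the samples: deviations of same-numbered libraries from their tumor means correlated at a median of -0.022, from -0.50 to 0.785. With the replicate number as a block, 1 member was lower in APC-KO tumor 2 than in tumor 1 in place of 3, and 1 to 2 were with a library number left out. Some members lay close to background in the APC-KO tumors. Mx2, Samd9l and Ifi44 stood at 1.75 to 2.36 times their expected background there, and Samd9l moved to -2.16 once that background was subtracted. Of the pathway list counts, 127 of 160 moved by no more than 1.5 times.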
